A study of Mus musculus with 4 samples.

Results

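Immediate early genes are switched on within minutes when a cell is stimulated, before any new protein has to be made, and several of their products then help to end the response. The 10 genes described here belong to both arms. Fos, Fosb, Jun and Junb encode subunits of the transcription factor AP-1, Egr1, Atf3 and Myc encode other transcription factors, and Ier3, Dusp1 and Zfp36 encode feedback proteins. They were chosen by symbol, and 10 of 10 were found among the 24441 genes of the deposited table. In skin this programme is known from wounding and inflammation, and its signal reaches the genes largely through MAP kinases and the factors SRF, Elk and Creb.

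Skin RNA was sequenced from 2 WT mice and 2 GSDMD KO mice, 1 library each, to compare their expression after bleomycin (BLM), a cytotoxic antibiotic that causes dermal fibrosis where it is injected. All 4 animals were female C57BL/6 mice labelled as 8 weeks old. GSDMD (gasdermin D) forms the membrane pores of pyroptosis, an inflammatory form of cell death, and the KO mice (GSDMD-/-) were made by injecting Cas9 mRNA and a guide RNA into C57BL/6 eggs. Both groups received BLM under the skin every other day for 28 days, so no saline-treated skin enters the comparison. Values are FPKM, fragment counts that the authors divided by transcript length and library depth, so that levels can be compared between genes. Gsdmd itself was at 14.0 and 18.2 FPKM in WT skin, against 3.53 and 2.26 in KO skin (log2 fold change -2.14, standard error 0.29).

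The depth was estimated from the steps in low values at about 12700000 to 17500000 fragments per library, and the FPKM sums lay between 448544 and 462251. KO replicate 2 stood apart from the other libraries. Its 7 fibroblast markers summed to 46.1 FPKM against 220.6 to 494.0 elsewhere, its 6 endothelial markers to 7.88 against 67.6 to 98.1, its 10 macrophage markers to 34.7 against 362.0 to 960.7, its 5 adipocyte markers to 208.1 against 1753 in WT replicate 1, 4798 in WT replicate 2 and 2221 in KO replicate 1, and its 5 mast cell markers to 11.2 against 67.7 to 99.7. The 8 hair follicle markers summed to 9.80 and 1.64 FPKM in WT skin against 322.7 and 17.9 in KO skin, so that KO replicate 1 stood apart in them. The library labels name skin, and the keratinocyte genes Krt5 and Krt14 were high in every library (at least 764.1 FPKM), but 6 skeletal muscle genes also summed to 18704 and 17540 FPKM in WT skin against 11574 and 10680 in KO skin. In whole skin, fewer cells of a type and less RNA per cell cannot be told apart.

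The 10 genes separated into a pair lower in GSDMD KO mice (Fos and Atf3), a pair higher (Egr1 and Myc) and 6 genes with small differences. Fold changes were taken on the log2(FPKM + 1) scale and tested with limma over the 13027 genes that reached 1 FPKM in 2 or more libraries, and 10 of the 10 members were among them. At the study's threshold (adjusted p under 0.05, absolute log2 fold change over 1) limma called 0 of the 10 members and 0.0% of all tested genes. Gsdmd itself was thus not called either (adjusted p = 0.248 by limma). At an unadjusted p under 0.05 with the same limit on the fold change, 3 of the 10 members passed against 10.3% of all tested genes. This count was 2 with upper-quartile scaling and with median-ratio factors, and 0 without WT replicate 2. These 3 were Fos and Atf3, lower in KO mice as were 4.14% of all genes by that rule, and Myc, higher as were 6.16%. Over all genes this split of 802 higher and 539 lower became 656 and 667 with upper-quartile scaling and 633 and 708 with median-ratio factors. Without the limit on the fold change Egr1 passed as well, so that 4 of 10 members had an unadjusted p under 0.05, against 17.1% of all genes. The groups did not overlap in 5 of 10 members and in 55.8% of all tested genes, so members with separated groups were no more frequent than in the background. For any single gene, the smallest p that an exact two-sided permutation test of 2 against 2 libraries allows is 0.333. The labels name no litter or batch, and p-values measure only the spread between these libraries.

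**Figure D1:**
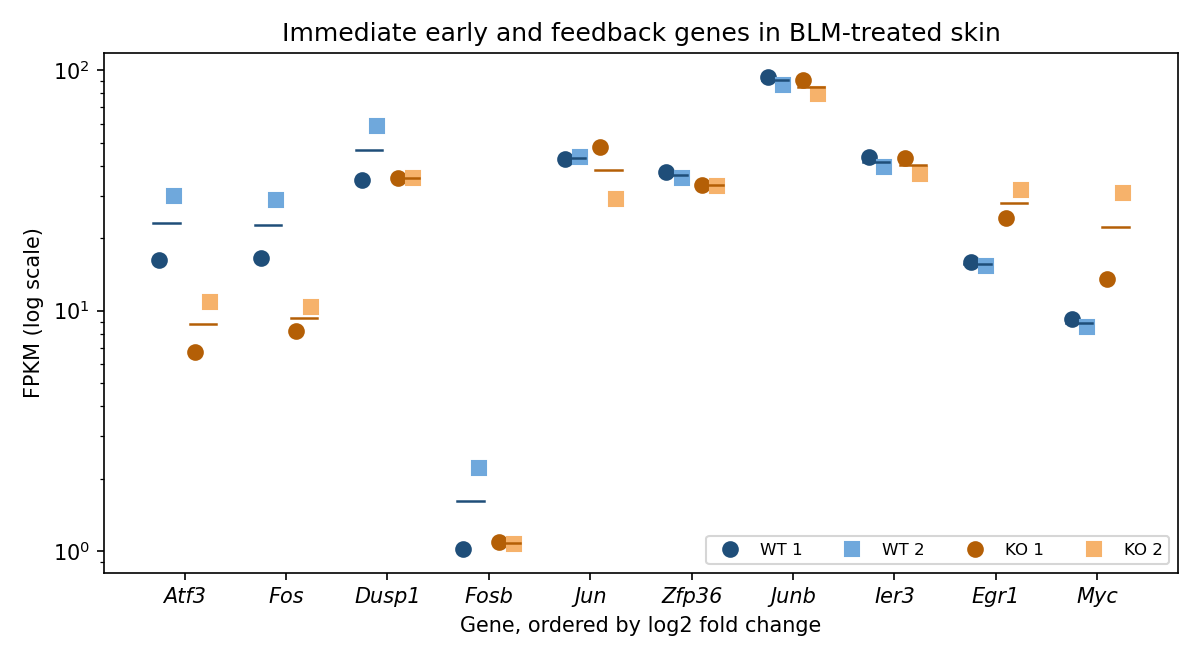
FPKM of the 10 genes (log axis) in each library, with WT in blue, KO in orange, circles for replicate 1, squares for replicate 2 and short lines at the group means. Fos and Atf3 lie lower in both KO libraries, Egr1 and Myc lie higher in both, and Zfp36 is lower in both by a small margin.

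Fos encodes the classical AP-1 partner of Jun. It was at 16.5 and 28.7 FPKM in WT skin, against 8.23 and 10.4 in KO replicates 1 and 2. Both KO libraries thus lay below both WT libraries, as in 20.5% of all tested genes, and the higher WT library stood well above the other. Group means were 22.6 ± 8.63 FPKM for WT and 9.31 ± 1.53 FPKM for KO skin (SD, n = 2 each). The log2 fold change was -1.15 (standard error 0.34, 95% interval -2.02 to -0.28, adjusted p = 0.248 by limma). About 238 to 866 fragments are estimated behind these values, so counting error was small beside the spread between mice. Fos lies on chromosome 12 of mm9 from 86814851 to 86818219 on the plus strand, and its annotated exons overlap no other gene. Within a library, Fos ranked at the percentiles 68.5 and 80.9 of tested genes in WT and 47.4 and 54.5 in KO mice.

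Atf3 encodes a stress-induced factor of the ATF/CREB family that can restrain inflammatory transcription. It was at 16.3 and 30.0 FPKM in WT skin, against 6.71 and 10.9 in KO skin, in each case replicate 1 before replicate 2. The groups again did not overlap, and WT replicate 2 was again the highest. The log2 fold change was -1.28 (standard error 0.40, 95% interval -2.29 to -0.26, adjusted p = 0.254 by limma). Atf3 spans positions 192994176 to 193007212 of chromosome 1 on the minus strand. Fos and Atf3 ordered the libraries alike, with WT replicate 2 highest, then WT replicate 1, KO replicate 2 and KO replicate 1. Of the tested genes, 1.9% had this order. Without WT replicate 2 the log2 fold changes were -0.77 for Fos and -0.86 for Atf3, and without WT replicate 1 they were -1.53 and -1.70. The differences therefore kept their direction but depended in size on 1 WT library. With median-ratio factors, under which the median over all genes shifted from 0.11 to 0.01 on the log2 scale, they were -1.27 and -1.39.

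The promoters of Fos and Atf3 are shown because both genes were lower in both KO libraries and both carry the core of the cyclic AMP response element (CRE), the letters TGACGT on either strand, at which ATF/CREB factors bind. Dusp1 is shown beside them as the other member with this core. For 8 of the 10 genes an entry was found among RefSeq promoters of build GRCm38.p6, and none was used for Egr1 and Myc. The 250 bases before the annotated start are printed 5′ to 3′ on the strand of the gene, with each CRE core in capitals. They cover chr12:85473640-85473889 (plus strand) for Fos, chr1:191183334-191183583 (minus strand) for Atf3 and chr17:26508473-26508722 (minus strand) for Dusp1.
Fos: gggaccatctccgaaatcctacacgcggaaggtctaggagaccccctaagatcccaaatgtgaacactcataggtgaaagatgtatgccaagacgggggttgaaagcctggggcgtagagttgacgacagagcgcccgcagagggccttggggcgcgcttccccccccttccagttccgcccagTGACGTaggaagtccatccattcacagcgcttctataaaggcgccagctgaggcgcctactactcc
Atf3: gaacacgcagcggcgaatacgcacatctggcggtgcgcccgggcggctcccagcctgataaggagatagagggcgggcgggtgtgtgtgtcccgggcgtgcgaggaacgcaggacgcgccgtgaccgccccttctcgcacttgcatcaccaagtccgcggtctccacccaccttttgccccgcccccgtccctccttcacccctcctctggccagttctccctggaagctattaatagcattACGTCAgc
Dusp1: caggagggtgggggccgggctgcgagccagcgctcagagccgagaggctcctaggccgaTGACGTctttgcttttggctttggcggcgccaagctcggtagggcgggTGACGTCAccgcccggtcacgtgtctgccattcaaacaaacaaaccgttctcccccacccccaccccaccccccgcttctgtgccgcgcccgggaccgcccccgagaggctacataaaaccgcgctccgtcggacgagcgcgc

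The core began 66 bases before the start of Fos and 8 bases before that of Atf3, where it read ACGTCA on the strand of the gene. In Dusp1 it began 191 and 143 bases before the start, and the match at 143 was the full palindrome TGACGTCA, whose other strand gives an overlapping match at 141. The core was found in 3 of the 8 members and in 6.47% of 32851 promoters of the same length, and the full CRE in 1 of 8 and in 1.55%. The binding sequence of Egr1 and its relatives, GCGNGGGCG on either strand, was found in 2 of 8 members, Fosb and Zfp36, and in 4.7% of promoters. The AP-1 sequence TGAGTCA was found in 0 of 8 and in 4.46%, the TATA box TATAAA in 1 of 8 (Fos) and in 12.4%, and the CArG box of SRF in 1 of 8 (Zfp36) and in 1.47%. These matches are a description of the sequence and not of binding.

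Egr1 encodes a zinc finger factor that is induced by growth signals through SRF and Elk. It was at 16.0 and 15.4 FPKM in WT skin, against 24.2 and 31.8 in KO replicates 1 and 2. The WT libraries were nearly equal and both KO libraries lay above them, as in 35.3% of all tested genes. The log2 fold change was 0.79 (standard error 0.25, 95% interval 0.14 to 1.43, adjusted p = 0.257 by limma). It ran from 0.60 to 0.98 when each library was left out in turn, and it was 0.67 with median-ratio factors. Egr1 lies on chromosome 18 of mm9 from 35020861 to 35024610. An exon of Egr1 overlaps Gm17507 on the opposite strand, and since the counting is not stated to use strand, reads of the pair cannot be told apart.

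Myc encodes a growth and proliferation factor that acts with its partner Max. It was at 9.21 and 8.54 FPKM in WT skin, against 13.5 and 30.9 in KO replicates 1 and 2. Both KO libraries were above both WT libraries, and KO replicate 2 was far above KO replicate 1. The log2 fold change was 1.13 (standard error 0.42, 95% interval 0.05 to 2.20, adjusted p = 0.282 by limma). It was 0.56 without KO replicate 2, where 0.33% of all tested genes were called and no member was. It was 1.69 without KO replicate 1, where limma gave an adjusted p of 0.0131 in a fit that called 15.8% of all tested genes and 1 of the 10 members. These fits assume that the lone KO library varies like the WT group. KO replicate 2, on which most of the size rests, is the library with low fibroblast, endothelial and macrophage markers. Myc lies on chromosome 15 from 61816896 to 61821916. Egr1 and Myc shared the order KO replicate 2, KO replicate 1, WT replicate 1, WT replicate 2, which was also the order of 21.56% of all tested genes.

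**Figure D2:**
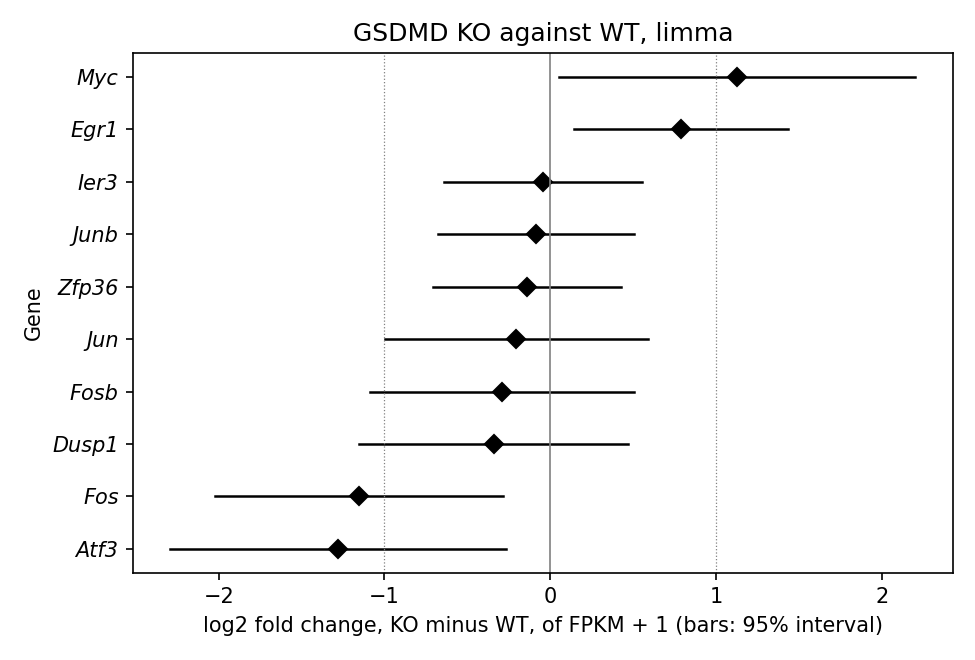
Log2 fold change of FPKM + 1, KO minus WT, for the 10 genes (diamonds) with the 95% interval of the limma fit over 4 libraries (bars) and dotted lines at -1 and 1. The intervals of Atf3, Fos, Egr1 and Myc lie on 1 side of 0 and those of the other 6 genes span it.

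Among the other AP-1 subunits no difference was detected. Jun was at 42.6 and 43.5 FPKM in WT skin, against 47.7 and 29.0 in KO skin (log2 fold change -0.20, 95% interval -0.997 to 0.59, adjusted p = 0.730 by limma). The KO libraries lay on both sides of the WT libraries, and without KO replicate 2 the value was 0.15. The single exon of Jun overlaps BC042782 on the opposite strand, with the same limit as for Egr1. Junb, whose product can oppose that of Jun, was the most abundant member in every library, with 94.0 and 87.2 FPKM in WT skin against 91.2 and 79.4 in KO skin. Its log2 fold change was -0.09 (95% interval -0.68 to 0.50, adjusted p = 0.847 by limma), so a doubling or halving of the level lies outside the interval. Fosb was the lowest member, with 1.02 and 2.21 FPKM in WT skin against 1.09 and 1.07 in KO skin, and only WT replicate 2 was raised. About 51 to 119 fragments are estimated behind a Fosb value, and its log2 fold change was -0.29 (95% interval -1.09 to 0.51, adjusted p = 0.619 by limma).

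The 3 feedback genes also showed small differences. Dusp1 encodes a phosphatase that switches off MAP kinases, and it was at 34.9 and 58.6 FPKM in WT skin, against 35.6 and 35.5 in KO skin. WT replicate 2 alone was raised, and the other 3 libraries lay within 0.679 FPKM of each other. The log2 fold change of -0.34 (95% interval -1.15 to 0.47, adjusted p = 0.570 by limma) became 0.02 without WT replicate 2. Zfp36 encodes tristetraprolin, which binds AU-rich elements and speeds the decay of cytokine mRNAs. It was at 37.7 and 35.7 FPKM in WT skin, against 33.3 and 33.1 in KO skin. The groups did not overlap, but the log2 fold change was -0.14 (95% interval -0.71 to 0.42, adjusted p = 0.739 by limma). Ier3, an apoptosis and NF-kB feedback gene, was at 43.4 and 39.4 FPKM in WT skin, against 43.3 and 37.1 in KO skin (log2 fold change -0.04, 95% interval -0.64 to 0.55, adjusted p = 0.929 by limma).

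In order of level, the WT means ran from Junb (90.6 FPKM) through Dusp1 (46.8), Jun (43.1), Ier3 (41.4), Zfp36 (36.7), Atf3 (23.2), Fos (22.6), Egr1 (15.7) and Myc (8.87) to Fosb (1.62). The levels of Dusp1, Jun, Ier3 and Zfp36 lay within the spread of Dusp1, and Egr1 was close to the lower WT values of Atf3 and Fos, so the order within these 2 sets of neighbours is not resolved. In KO mice the means of Egr1 (28.0 FPKM) and Myc (22.2) stood above those of Fos (9.31) and Atf3 (8.78). WT replicate 2 held the highest value of 4 members (Fos, Fosb, Atf3 and Dusp1), WT replicate 1 of 3, KO replicate 2 of 2 and KO replicate 1 of 1. WT replicate 2 was also the library with the highest sums of adipocyte, macrophage and endothelial markers and of heat shock genes. Their part in these values was not tested. The ratio of Egr1 to Fos within a library, which no scaling of whole libraries can change, was 0.967 and 0.536 in WT and 2.94 and 3.06 in KO libraries. This ratio was chosen after the values had been seen and is given without a test.

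The shares of Fos, Egr1 and Zfp36 in their families did not overlap between the groups, whereas those of Fosb, Jun and Junb did. No test of shares was run. Fosl2, which encodes the Fos-related subunit FRA2, was at 11.0 and 8.11 FPKM in WT skin, against 17.6 and 19.4 in KO skin (log2 fold change 0.90, standard error 0.26, adjusted p = 0.248 by limma). Fos made up 54.8% and 71.4% of the summed FPKM of the 4 Fos family genes in WT and 29.5% and 33.0% in KO libraries, and Fosl2 made up 36.4% and 20.2% in WT and 63.0% and 61.6% in KO libraries. The family sum itself was 30.1 and 40.2 FPKM in WT skin against 27.9 and 31.6 in KO skin, with overlapping groups. Fosl1 was low throughout, at 0.660 to 1.62 FPKM. In the Jun family the share of Jun stayed between 17.7% and 24.0% in every library.

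Egr2 and Egr3, zinc finger factors with the same binding site as Egr1, were higher beside it. Egr2 was at 11.0 and 6.18 FPKM in WT skin, against 18.7 and 36.9 in KO skin (log2 fold change 1.56, standard error 0.44, adjusted p = 0.248 by limma). Egr3 was at 6.77 and 1.82 FPKM in WT skin, against 17.2 and 29.3 in KO skin, the highest log2 fold change in the list of other immediate early genes (log2 fold change 2.33, standard error 0.56, adjusted p = 0.248 by limma). In each of these 3 genes both KO libraries lay above both WT libraries, as in 35.3% of all tested genes. Egr1 made up 47.3% and 65.8% of the Egr family sum in WT and 40.2% and 32.5% in KO libraries. Its share was thus lower although its level was higher. Egr4 was listed at 0 in the WT libraries and at no more than 0.0388 FPKM in KO mice. The relatives of Zfp36, Zfp36l1 and Zfp36l2, had more FPKM in both KO libraries than in both WT libraries, and the share of Zfp36 in the family sum was 38.5% and 40.7% in WT and 28.9% and 27.8% in KO libraries. Families and shares were chosen after the values had been seen.

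**Figure D3:**
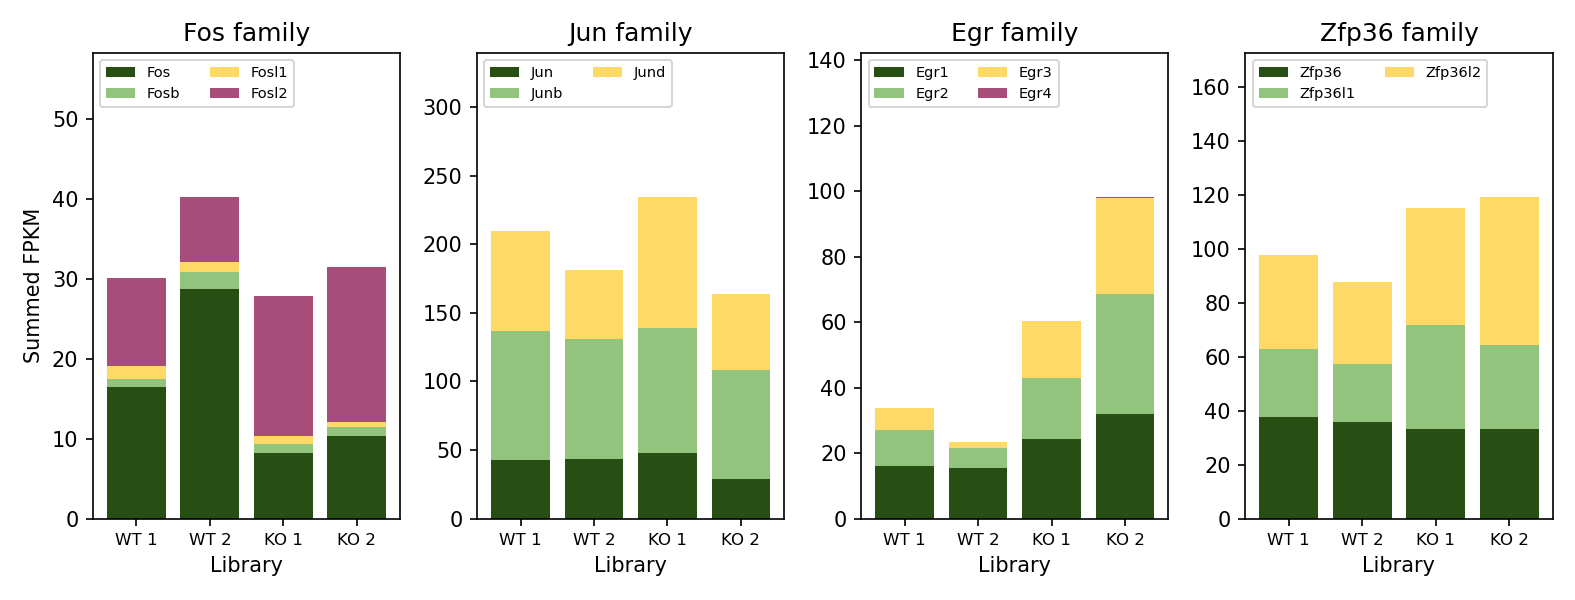
Stacked bars of summed FPKM of the Fos, Jun, Egr and Zfp36 families in each library, each panel from 0 on its own scale. Fosl2 takes the larger part of the Fos family in both KO libraries, and the Egr family sum is higher in both KO libraries (60.2 and 98.1 FPKM) than in WT (33.7 and 23.4).

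A list of 34 other immediate early genes, without the 10 members, had no common direction. Of 31 tested, 15 were lower and 16 higher in KO mice, the median log2 fold change was 0.02 against 0.11 over all tested genes, and 0 had an adjusted p under 0.05 by limma. At an unadjusted p under 0.05, 3 were lower and 4 higher. Over all genes these shares were 6.22% lower and 10.9% higher. The lowest log2 fold changes were those of Klf2, an endothelial and leukocyte transcription factor (34.0 and 50.9 FPKM in WT skin against 23.3 and 5.09 in KO skin), and Rhob, a small GTPase gene (53.1 and 70.9 FPKM against 44.8 and 20.3 FPKM). In both genes the low value was that of KO replicate 2. Nr4a1, an immediate early nuclear receptor gene named here after its values were seen, was at 34.2 and 30.9 FPKM in WT skin, against 22.5 and 16.4 in KO skin (log2 fold change -0.73, adjusted p = 0.276 by limma).

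Of 24 other feedback genes 11 were lower and 13 higher, with a median log2 fold change of 0.04 and 0 adjusted p-values under 0.05 by limma. At an unadjusted p under 0.05, 1 was lower and 2 were higher, no larger a share than the 6.22% and 10.9% of all genes. Nfkbie, an inhibitor of NF-kB, was at 5.32 and 5.62 FPKM in WT skin, against 2.74 and 2.10 in KO skin (log2 fold change -0.93, standard error 0.25, adjusted p = 0.248 by limma). Dusp10, a phosphatase for the stress-activated kinases, followed with 14.6 and 14.1 FPKM against 10.2 and 7.92 FPKM. On the other side Nfkbiz, which encodes a nuclear regulator of NF-kB targets, was at 8.81 and 8.98 FPKM in WT skin, against 15.3 and 30.0 in KO skin (log2 fold change 1.18, standard error 0.37, adjusted p = 0.254 by limma). Spred1, an inhibitor of the Ras to MAP kinase path, had 4.67 and 2.28 FPKM against 6.20 and 10.3 FPKM.

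In the genes that carry the signal no difference was detected. Of 24 genes for MAP kinases, their activators and the factors SRF, Elk and Creb, 14 were lower and 10 higher, with a median log2 fold change of -0.07 and log2 fold changes between -0.89 and 0.68. Of these genes, 0 had an unadjusted p under 0.05 by limma, against 17.1% of all tested genes. Elk3 was the lowest, with 8.25 and 10.6 FPKM in WT skin against 8.65 and 2.25 in KO skin, again through KO replicate 2. Creb1 was the highest, with 2.80 and 1.89 FPKM against 3.62 and 5.07 FPKM. Protein phosphorylation, by which this path acts, is not measured by RNA.

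Among 16 AP-1 and other bZIP partners, of which 4 are also in the list of immediate early genes, 6 were lower and 10 higher, and the median log2 fold change was 0.07. Batf and Batf3, AP-1 factors of immune cells, had the lowest log2 fold changes. Batf was at 5.06 and 9.63 FPKM in WT skin, against 2.15 and 0.773 in KO skin (log2 fold change -1.76, standard error 0.43, adjusted p = 0.248 by limma). Batf3 had 8.67 and 8.46 FPKM against 4.80 and 1.88 FPKM. Of 8 tested Myc network partners 6 were higher, with a median log2 fold change of 0.45, and at an unadjusted p under 0.05 0 were lower and 1 was higher, beside 6.22% and 10.9% of all genes. This median was 0.30 without WT replicate 2, 0.63 without WT replicate 1 and 0.28 for genes of at least 5 FPKM. That gene was Mxd3, which encodes a Max-binding repressor, with 1.81 and 1.62 FPKM in WT skin against 3.94 and 5.49 in KO skin. Max had 35.1 and 25.4 FPKM in WT and 47.5 FPKM in each KO library.

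The mRNAs listed as targets of tristetraprolin were mostly lower, and Zfp36 itself showed a small difference. Of 11 such genes 8 were tested, among them the members Ier3 and Myc, and 7 were lower and 1 (Myc) higher, with a median log2 fold change of -1.17, which was -0.75 without a filter on low values and -1.80 with a pseudocount of 0.1. At an unadjusted p under 0.05, 5 were lower and 1 was higher, beside 6.22% lower and 10.9% higher over all genes, of which 41.4% had a log2 fold change below 0. Cxcl2, a neutrophil chemokine, had the lowest log2 fold change, with 38.8 and 46.6 FPKM in WT skin against 2.09 and 3.63 in KO skin. Il1b, the gene of the cytokine IL-1β, came next (log2 fold change -3.41, standard error 0.39, adjusted p = 0.248 by limma). Several genes of this list are among those the study picked on the same libraries, so the count is not independent evidence of the direction. The 10 macrophage markers and the 4 tested neutrophil markers were also all lower (median log2 fold changes -2.6 and -1.64). The part of these cells, or of tristetraprolin, in the lower values of this list was not tested.

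Cell type markers also differed between the libraries. The 10 macrophage markers were lower in KO mice in 10 of 10 genes, and over all tested genes 41.4% had a log2 fold change below 0. For 8 of these markers the KO values were both below the WT values, against 20.5% of all tested genes, and 2 overlapped. Their summed levels were 740.5 and 960.7 FPKM in WT skin against 362.0 and 34.7 in KO replicates 1 and 2, and no marker was at 0 in any library. The macrophage sum was thus 10.4 times lower in KO replicate 2 than in KO replicate 1, and fibroblast and endothelial markers were also lower there. Of 10 neutrophil markers 4 were tested and all 4 of these were lower, and the sum over all 10, mostly S100a8 and S100a9, was 759.9 and 620.2 FPKM in WT skin against 310.4 and 149.5 in KO skin. The other 6 markers stayed below the filter and differed in direction. Ly6g and Mpo were at 0 in both KO libraries and at no more than 0.238 FPKM in WT skin, whereas Camp was at 0.315 and 0.348 FPKM in WT skin against 2.51 and 0.209 in KO skin. These 3 genes were named after their values had been seen. The 6 skeletal muscle genes were lower in 6 of 6, with a median log2 fold change of -0.75, and for 4 the KO values were both below the WT values, against 20.5% of all tested genes. The part of these cells in the lower Fos and Atf3 values was not tested.

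The 7 keratinocyte markers were higher in 7 of 7 genes, with sums of 3544 and 2768 FPKM in WT skin against 7910 and 5111 in KO skin and none at 0. Over all tested genes 41.4% had a log2 fold change below 0. In 5 of the 7 both KO libraries lay above both WT libraries, against 35.3% of all tested genes. The other two, the differentiation keratins Krt1 and Krt10, overlapped, and in KO replicate 2 they were at 279.9 and 266.3 FPKM, below both WT libraries. Krt14 was at 1293 and 1215 FPKM in WT skin, against 2689 and 2735 in KO skin. Per Krt14, Egr1 stood at 0.0123 and 0.0127 in WT and at 0.0090 and 0.0116 in KO libraries, and per Krt10 it stood at 0.0214 and 0.0423 in WT and at 0.0145 and 0.1195 in KO libraries. Myc per Krt14 was 0.0071 and 0.0070 in WT and 0.0050 and 0.0113 in KO libraries, on both sides of the WT values. Per Krt10 the values of Myc were 0.0124 and 0.0235 in WT and 0.0081 and 0.1161 in KO libraries. Per Krt5, Egr1 stood at 0.0209 and 0.0201 in WT and at 0.014 and 0.0191 in KO libraries. For Egr1, KO replicate 2 thus lay below both WT libraries per Krt14 and per Krt5 and above both per Krt10. These keratins were picked from the marker list after their values had been seen. The part of keratinocytes in the higher Egr1 and Myc values was not tested. Hair follicle markers were also higher, in 7 of 7 tested genes, and for 4 the KO values were both above the WT values. Of these, Lhx2, a factor of hair follicle stem cells named after its values were seen, was at 1.48 and 0.872 FPKM in WT skin against 7.99 and 10.02 in KO skin. Their part in the Egr1 and Myc values was not tested either. Of 9 heat shock genes, which report stress of the tissue, 7 were higher and 2 lower, against 41.4% of all tested genes with a log2 fold change below 0. Their median log2 fold change was 0.36, but 0.14 without KO replicate 2 and 0.58 without KO replicate 1, against 0.11 over all genes in the comparison of all 4 libraries. The 2 lower genes were Hspb1 (log2 fold change -0.69) and Hspa8 (-0.17). Hspa1b was at 29.0 and 32.0 FPKM in WT skin, against 58.1 and 63.0 in KO skin, and Dnajb1 had 12.2 and 13.3 FPKM against 20.8 and 27.9 FPKM. The part of stress in the members' values was not tested.

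**Figure D4:**
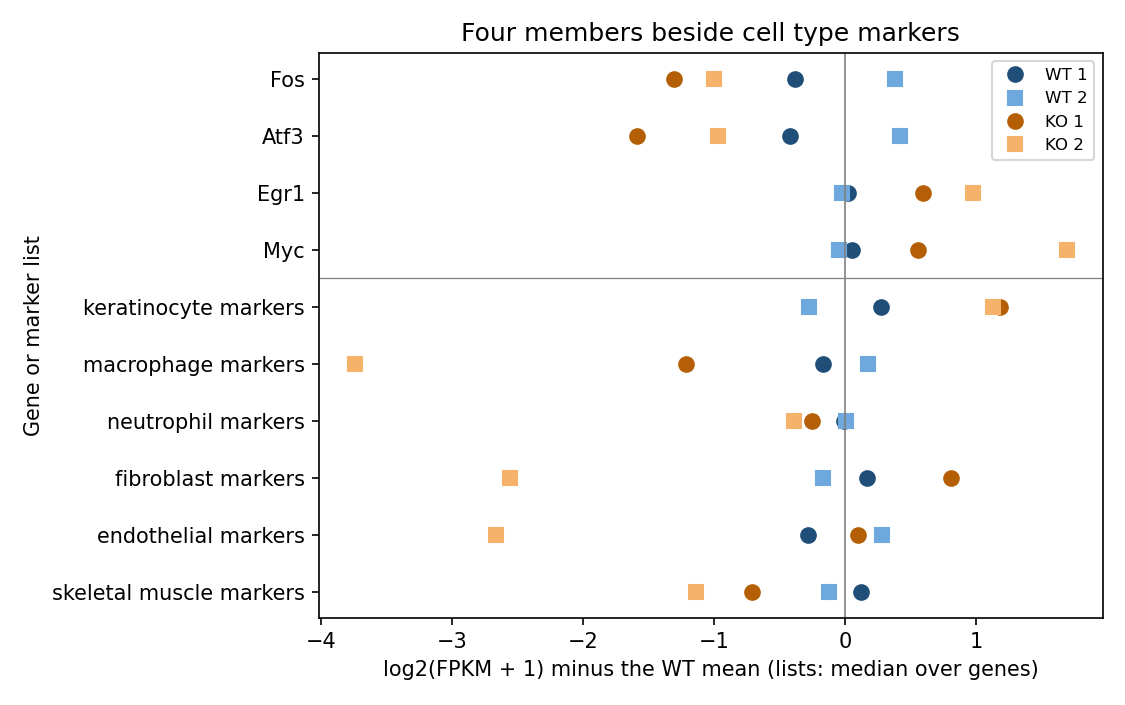
Log2(FPKM + 1) minus the WT mean for Fos, Atf3, Egr1 and Myc (upper rows) and, for 6 marker lists, the median over genes of the same difference (lower rows), with 1 point per library. KO replicate 2 is far to the left for macrophage (-3.74), endothelial (-2.67) and fibroblast markers (-2.56), and keratinocyte markers lie to the right in both KO libraries (1.18 and 1.13).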

How the data were processed

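Gene expression of 4 skin libraries was read from the deposited table, whose FPKM values the authors had already scaled by transcript length and depth. The file is named as counts, but 99.993% of its values above 0 are not whole. The submitters' processing notes name HISAT2 version 2.0.1, StringTie version 2.0.6 and build mm9, whereas the study's methods name featureCounts for counting reads. Which of these tools gave the FPKM values is not given in the sources used here. A count model was therefore not used. Log2(FPKM + 1) values of genes reaching 1 FPKM in 2 or more libraries were compared by limma (version 3.58.1, R version 4.3.3), using genotype alone, a mean-variance trend and Benjamini-Hochberg adjustment over all 13027 genes. The test was checked on simulated data.

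Loci are those of the table with 1 added to each start, since 9842 starts lay 1 base below those in GENCODE's mm9 annotation. Of 20132 genes matched once by symbol, 99.2% overlapped the annotated gene. Depth is approximate and was estimated from the value of 1 fragment in low genes that have 1 transcript. The members and gene lists were chosen with earlier results of these data known. Named genes are the 10 members, Gsdmd and, of each other list described, up to 2 with the largest falls and 2 with the largest rises, and any other gene was named after its values had been seen. Alternatives were other pseudocounts, filters and scalings, no trend, the replicate number as a block and leaving out each library.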

Additional observations from a re-analysis of the deposited data

How the results depend on the processing

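For the 10 members, filters, the trend and the replicate block leave a log2 fold change as it is by construction, and other pseudocounts and scalings turned no sign. The 6 reversals came from leaving out 1 library in genes with a small difference. Over the libraries left out, the log2 fold change ran from -0.63 to 0.043 for Fosb and from -0.71 to 0.024 for Dusp1, where WT replicate 2 turned the sign. It ran from -0.55 to 0.15 for Jun and from -0.19 to 0.0098 for Junb, where KO replicate 2 turned the sign, and from -0.15 to 0.064 for Ier3, where WT replicate 1 (0.024) and KO replicate 2 each did. Myc passed the threshold without KO replicate 1 (log2 fold change 1.69). Leaving out 1 library gave between 0 and 2058 called genes, between 0 and 1 called members, and between 0 and 2 members in place of 3 by the unadjusted rule. The 2058 calls came without KO replicate 1 and 43 came without KO replicate 2, and without WT replicate 2 no member passed the unadjusted rule. The member median of -0.17 ranged from -0.24 to -0.064 over the libraries left out, and it was -0.27 with upper-quartile and -0.29 with median-ratio scaling.

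Every other alternative called 0 genes and 0 members by limma. Same-numbered libraries were not treated as paired, because no label ties a number to a litter or batch (correlation of deviations -0.20 over 13027 genes). With the replicate block 0 genes were called (smallest adjusted p = 0.0541 by limma) and 1593 passed the unadjusted rule. With the crossed pairing, chosen after seeing the data, these counts were 0 and 1500, against 1341 without a block. Upper-quartile and median-ratio scaling moved the split of these genes from 802 higher and 539 lower to 656 and 667, and to 633 and 708. The medians of 4 lists changed sign under some alternatives, running from -0.13 to 0.10 for the other immediate early genes, from -0.07 to 0.20 for the other feedback genes, from -0.19 to 0.02 for the MAP kinase and SRF genes and from -0.11 to 0.15 for the bZIP partners. Depth limits Fosb most, with 51 to 119 estimated fragments behind a value.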
